A study of Mus musculus with 2 samples.

Results

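T cells and natural killer (NK) cells of the adult mouse testis were picked out of a droplet-based single-cell RNA sequencing table by a gate on 7 genes. A barcode, the tag shared by all RNA caught in 1 droplet, was a member if its unique molecular identifiers (UMIs, counts of distinct captured RNA molecules) of Cd3d, Cd3e, Cd3g, Trbc1, Trbc2, Nkg7 and Gzma summed to at least 5. The gate held 266 of 28245 barcodes (0.942%, exact binomial 95% interval 0.832 to 1.06%). Its 7 genes chose the members, so their levels are given below as a description. The series set testes of adult miR-202-/- mice, a knockout of a microRNA, beside testes of adult wild-type mice, both of the strain C57BL/CJ;ICR, and asked how cell composition and gene expression differ. Total testicular cells were dissociated with collagenase and trypsin, and debris was sorted away before capture with 3′ chemistry. Each genotype had 1 library, and the labels do not say how many mice went into it.

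The table joins both libraries, and each barcode name ends in 1 or 2, here called mark 1 and mark 2. Which mark is which genotype could not be told from the labels or the table, and all values are given by mark, never as knockout or wild type. With 1 library per mark nothing was tested, and every interval covers counting error only. Mark 1 held 12935 barcodes with a median of 6061 UMIs, and mark 2 held 15310 with a median of 5509. In the table every gene was either at 0 in all barcodes of a mark or present in at least 17 barcodes (mark 1) or 19 barcodes (mark 2). Cd8a, Cd28, Icos, Cd226, Ifng, Il2rb, Il18r1 and Ikzf3 are at 0 in every mark 2 barcode, and Klre1, Ccl3 and Ifit3 in every mark 1 barcode. Genes at 0 under either mark were left out of all ratios.

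T cells read antigen through a receptor of alpha and beta or gamma and delta chains, which signals through the CD3 chains encoded by Cd3d, Cd3e, Cd3g and Cd247. Trbc1 and Trbc2 encode alternative constant regions of the beta chain and Trac that of the alpha chain. NK cells lack this receptor and, like cytotoxic T cells, carry granule proteins such as granzyme A (Gzma) and Nkg7. In the testis lymphocytes lie mainly in the interstitium outside the seminiferous tubules, where macrophages are the common immune cells, and germ cells behind the Sertoli cell barrier are shielded from them.

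The gate held barcodes of contrasting kinds. In 96 of the 266 at least 1 UMI came from Cd3e, Cd3g, Trbc1, Nkg7 or Gzma, and in the other 170 all gate UMIs came from Cd3d and Trbc2. This split was chosen after the values were seen. Of the leukocyte markers Ptprc (CD45, on all nucleated blood cells), Cd52, Coro1a and Ptprcap, at least 1 UMI was found in 94 of the 96 (97.9%, 92.7 to 99.8%), with a median of 9.5 UMIs at a median depth of 5196 UMIs. The same markers had a UMI in 7 of the 170 (4.12%, 1.67 to 8.3%), none with more than 1 UMI, although the median depth there was 32266 UMIs. In the remaining 27979 barcodes of the table, the rest, the share was 1.76%. Of 17 T and NK markers listed outside the gate 13 are in the table, and 93 of the 96 had a UMI of them (96.9%), with a median of 3 markers detected. For the 170 the share was 34.1%, with a median of 0 markers, and for the rest it was 15.3%. The 96 are therefore called T or NK cell-like, while the 170 are named by their genes, as Cd3d/Trbc2-only barcodes, since the leukocyte markers go against the label.

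**Figure D1:**
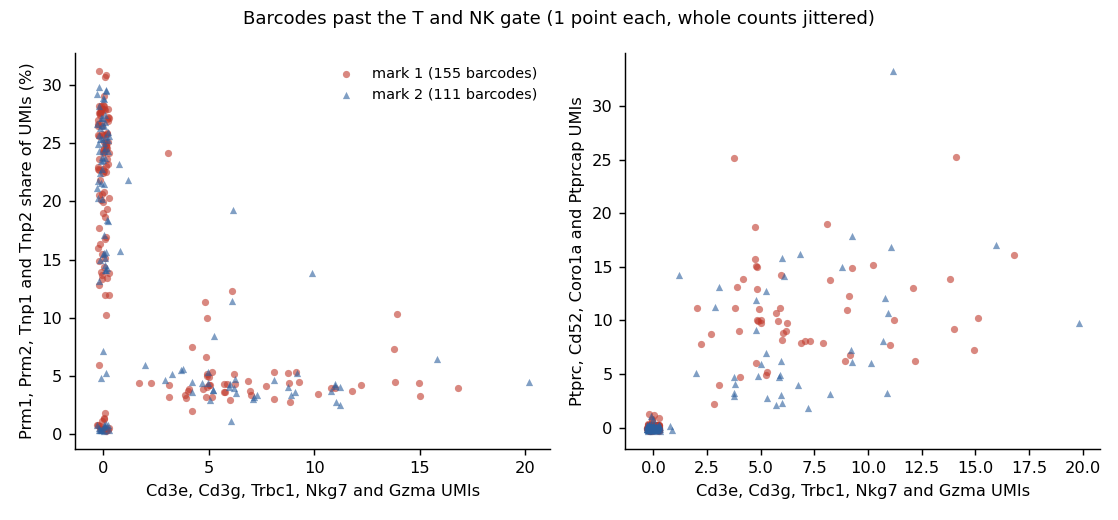
Each point is 1 of the 266 gated barcodes, placed by its UMIs of Cd3e, Cd3g, Trbc1, Nkg7 and Gzma (x axis of both panels) and by the Prm1, Prm2, Tnp1 and Tnp2 share of its UMIs in percent (left) or its leukocyte marker UMIs (right), with circles for mark 1 and triangles for mark 2. The 170 barcodes at 0 on the x axis reach a protamine and transition protein share of 31.2% and hold at most 1 leukocyte UMI, while the 96 others have a median share of 4.27% and a median of 9.5 leukocyte UMIs.

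The CD3 genes lie together on mouse chromosome 9 (GRCm38), with Cd3d at 44981786-44987339 on the plus strand and Cd3g at 44969572-44980431 and Cd3e at 44998740-45009627 on the minus strand. Cd3d and Cd3g start 1355 bases apart and run away from each other. The 250 bases before the RefSeq start (GRCm38.p6) of each gene are shown because Cd3d had UMIs across the table. Cd3g and Cd3e had few outside the 96 barcodes. For Cd3e this start lies inside the gene span given above, so its window overlaps that span from 45009612 to 45009627. Capitals mark GGAAG, the core of sites of Ets factors (CTTCC on the other strand), and TGACG, a cyclic AMP response element half-site, as found on either strand without overlap.
Cd3d (chr9:44981536-44981785, plus strand): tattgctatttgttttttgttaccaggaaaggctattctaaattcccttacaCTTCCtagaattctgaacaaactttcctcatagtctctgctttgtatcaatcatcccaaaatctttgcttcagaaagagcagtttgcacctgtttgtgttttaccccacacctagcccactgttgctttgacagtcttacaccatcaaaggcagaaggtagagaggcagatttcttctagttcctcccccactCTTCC
Cd3g (chr9:44980432-44980681, minus strand): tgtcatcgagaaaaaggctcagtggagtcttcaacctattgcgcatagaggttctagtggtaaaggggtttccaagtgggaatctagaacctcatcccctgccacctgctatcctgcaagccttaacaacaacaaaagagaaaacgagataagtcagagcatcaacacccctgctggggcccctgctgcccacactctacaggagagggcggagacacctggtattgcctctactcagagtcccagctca
Cd3e (chr9:45009612-45009861, minus strand): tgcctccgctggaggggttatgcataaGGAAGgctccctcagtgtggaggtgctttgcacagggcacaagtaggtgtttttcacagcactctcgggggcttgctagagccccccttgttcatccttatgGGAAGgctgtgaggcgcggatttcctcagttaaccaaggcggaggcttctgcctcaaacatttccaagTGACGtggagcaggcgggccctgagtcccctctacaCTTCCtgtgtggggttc
The Ets core occurs 2 times before Cd3d, 3 times before Cd3e and 0 times before Cd3g, and it occurs in 64.1% of 32851 such windows of the genome. The half-site occurs 1 time, before Cd3e, and in 17.8% of windows. The full element TGACGTCA (1.55% of windows) and TGTGGT, a core of Runx sites (14% of windows), occur before none of the 3 genes.

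Cd3d encodes the delta chain of CD3. In T or NK cell-like barcodes it had 272 CPM under mark 1 (219 to 334) and 188 CPM under mark 2 (142 to 243), where CPM is the number of UMIs of a gene per 1000000 UMIs summed over the barcodes. In the rest it had 30.6 and 30.7 CPM. The levels of the 96 exceeded the rest 8.88-fold and 6.12-fold, yet 91.3% of all Cd3d UMIs of the table lay in the rest. Among barcodes of at least 10000 UMIs in the rest, Cd3d had 62.0 CPM in those with a protamine and transition protein share of 10% or more and 14.6 CPM in those below that share. Protamines (Prm1, Prm2) and transition proteins (Tnp1, Tnp2) replace histones on the DNA of elongating spermatids, so their UMIs mark RNA of late germ cells.

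Cd3g, the gamma chain, and Cd3e, the epsilon chain that pairs with gamma or delta, had far higher levels in the 96 barcodes than in the rest. Cd3g had 358 CPM under mark 1 (297 to 428) and 353 CPM under mark 2 (289 to 426), against 0.0325 and 0.0966 CPM in the rest, and 91.6% of its UMIs lay in the 96. Cd3e had 112 CPM (79.5 to 154) and 62.6 CPM (37.7 to 97.8), against 0.221 and 0.193 CPM in the rest, and 46.3% of its UMIs lay in the 96. The ratio of mark 1 over mark 2 was 1.45 (1.03 to 2.05) for Cd3d, 1.8 (1.01 to 3.3) for Cd3e and 1.01 (0.776 to 1.33) for Cd3g. No UMI of either Cd3g or Cd3e fell in the 170, which chose them.

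Trbc1 likewise lay mostly in the 96, with 290 CPM under mark 1 and 188 CPM under mark 2, and had 5 UMIs in the whole rest. Trbc2 had 343 CPM (284 to 412) and 214 CPM (165 to 273) in the 96, against 7.66 and 7.8 CPM in the rest, where 2138 barcodes held a UMI. Trbc1 and Trbc2 are near-identical copies and reads can be split between them by the counting, so their separate levels are uncertain. Nkg7, a membrane protein of cytotoxic granules, had 349 CPM (289 to 418) and 257 CPM (203 to 321), against 0.0844 and 0.0302 CPM in the rest. Gzma had 29.6 CPM (14.2 to 54.4) under mark 1 and 85.7 CPM (56.0 to 126) under mark 2. Its 36 UMIs came from 8 barcodes, 4 under each mark, and 1 mark 2 barcode held 14 of them.

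**Figure D2:**
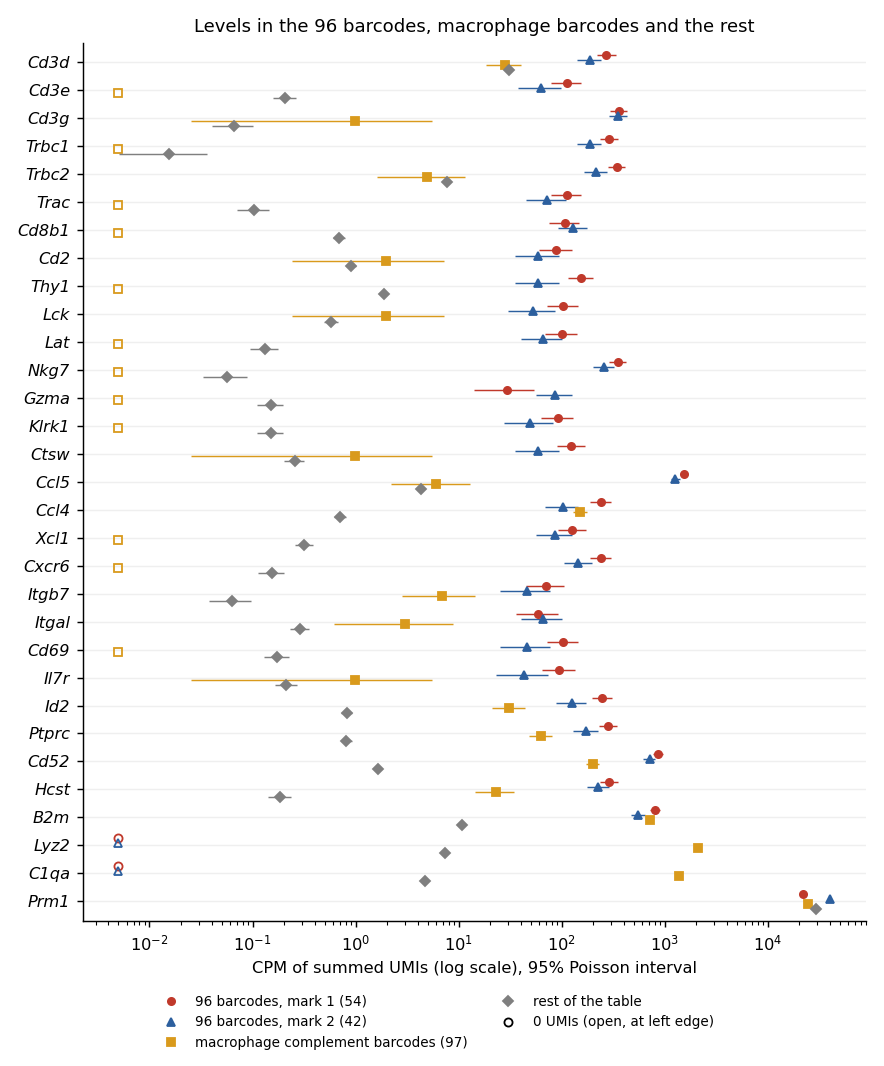
Levels in CPM (log axis, with exact Poisson 95% intervals) in the T or NK cell-like barcodes of mark 1 (circles) and mark 2 (triangles), in barcodes of the macrophage complement gate (squares) and in the rest (diamonds), for T cell receptor, surface and signalling genes at the top, cytotoxic, homing and leukocyte genes below, and Lyz2, C1qa and Prm1 at the bottom. Open symbols at the left edge mark 0 UMIs. Circles and triangles lie to the right of the diamonds for all genes shown except Lyz2, C1qa and, under mark 1, Prm1.

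The 170 Cd3d/Trbc2-only barcodes were deep, and most were rich in RNA of late germ cells. Cd3d gave 786 of their gate UMIs and Trbc2 190. In 138 of them the protamine and transition protein share was at least 10%, with a median of 24.3%, and in 32 it was lower, with a median of 0.657% at a median depth of 75950 UMIs. Against barcodes of the rest with at least 10000 UMIs and a share of at least 10%, the 138 had 0 of 6967 compared genes at least 2-fold higher under both marks (0%) and 23 at least 2-fold lower (0.33%). Against deep barcodes of the rest below that share, the 32 had 8 of 9114 compared genes higher (0.0878%) and 776 lower (8.51%). The gate genes were left out of these counts. Any other gene was compared if it had, under each mark, at least 10 UMIs observed in the group named first or expected there from the level of the other.

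Cd3d/Trbc2-only barcodes were a larger part of deeper barcodes. The gate counts raw UMIs, and what depth adds to their number was not tested. Among barcodes with a share of at least 10%, Cd3d/Trbc2-only members made up 0 of 188 barcodes below 5000 UMIs, 0.066% between 5000 and 10000 UMIs and 1.28% between 10000 and 20000 UMIs. They made up 6.46% between 20000 and 40000 UMIs and 26.4% (19.0 to 34.8%) above 40000 UMIs. Over the same bins Cd3d had 45.7, 65.5, 74.5, 62.2 and 47.8 CPM, with no rise in the deepest bin. With every barcode thinned to 3000 UMIs, 59 barcodes passed the gate, all of them among the 96 and none among the 170. Thinning can only remove UMIs, and 104 of the 170 held exactly 5 gate UMIs at great depth. Their loss was therefore fixed in advance and is no separate support for the split.

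**Figure D3:**
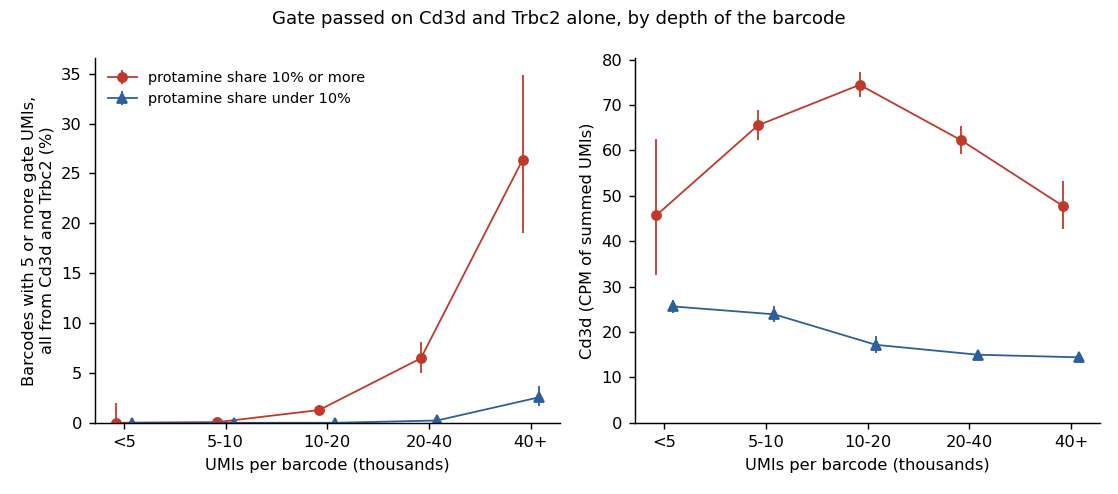
Barcodes in 5 bins of depth (UMIs per barcode) with a protamine and transition protein share of at least 10% (circles) or below it (triangles). The left panel gives the percentage that passed the gate on Cd3d and Trbc2 alone with exact binomial 95% intervals, which reached 26.4% and 2.55% in the deepest bin, and the right panel the Cd3d level in CPM with Poisson 95% intervals, which was 47.8 and 14.4 CPM there.

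The gate at 5 UMIs cut through a range in which Cd3d/Trbc2-only barcodes prevailed. Just inside, 113 barcodes had exactly 5 gate UMIs, of which 9 held a UMI of Cd3e, Cd3g, Trbc1, Nkg7 or Gzma. Just outside, 247 barcodes had exactly 4, of which 5 held such a UMI. At 12 or more gate UMIs 28 of 29 did. The split by at least 1 such UMI also has a margin: 3 of the 96 rested on 1 UMI, these had a protamine and transition protein share of at least 15.7%, and 2 of them had no leukocyte UMI.

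T or NK cell-like barcodes made up 0.417% of mark 1 (54 of 12935) and 0.274% of mark 2 (42 of 15310), a ratio of 1.52 (0.998 to 2.34). Without the 10 barcodes whose protamine and transition protein share exceeded 10% the shares were 0.387% and 0.235%, a ratio of 1.64 (1.05 to 2.6). The Cd3d/Trbc2-only shares were 0.781% and 0.451%, a ratio of 1.73 (1.26 to 2.39). Barcodes with at least 5 UMIs of C1qa, C1qb and C1qc, complement genes of macrophages, did not share this direction, at 0.309% and 0.372%, a ratio of 0.831 (0.54 to 1.27). These macrophage complement barcodes exclude the 2 that were members. The median depth of the 96 was lower under mark 2, at 5540 and 4692 UMIs, with ranges of 4018 to 18626 and 3534 to 36400 UMIs. The shallowest barcode of the table held 3924 UMIs under mark 1 and 3529 under mark 2. The gate counts raw UMIs, and what depth adds to these ratios was not tested. Of the barcode sequences 73 occur under both marks, none of them as a member under both.

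Outside the gate genes, the 96 barcodes carried a broad lymphocyte profile. Against the rest, 283 of 4736 compared genes were at least 2-fold higher under both marks (5.98%) and 41 at least 2-fold lower (0.866%). Against the 19350 barcodes of the rest with fewer than 10000 UMIs, which are nearer in depth, 288 were higher (6.09%) and 42 lower (0.889%). The T cell, NK cell and leukocyte lists together name 144 genes, of which 50 could be compared, and 44 of these were higher and 0 lower. For the 170 against the rest, 15 of 11192 compared genes were higher (0.134%) and 1893 lower (16.9%), and of 19 comparable genes of these lists 0 were higher and 1 was lower. Over all 266 members 151 of 11589 genes were higher (1.3%) and 1379 lower (11.9%). The cells were chosen by genes expressed with these, so the counts describe the profile.

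Among genes outside the gate with at least 50 UMIs in the members, those with the largest ratio of all members over the rest were Ptprcap, S100a4, Hcst, Rgs1, Cxcr6, Trac, AW112010, Ly6c2, Lat and Ctla2a, from 157-fold (103 to 244) for Ptprcap to 43.2-fold (29.8 to 62.6) for Ctla2a. The next were Gimap6, Lsp1, S100a6, Cd52, Coro1a, Gimap4, Sept1, Ctsw, Ccl5, Xcl1, Cnn2, Psmb8, Arhgdib, Sp100 and Ptprc, down to 22.8-fold (18.5 to 28.0) for Ptprc. Itgb7, with 38 UMIs, lay below that minimum at 75.6-fold (42.9 to 137). S100a4, a calcium-binding protein of memory and effector T cells, had 548 UMIs in the 96 and 1 in the 170, and Ccl5 had 908 in the 96 and 55 in the 170. For Hcst (DAP10, the signalling partner of the receptor NKG2D) the levels in the 96 were 290 CPM under mark 1 and 227 CPM under mark 2, against 0.117 and 0.248 CPM in the rest.

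Among receptor genes outside the gate, 3 of 3 comparable genes were higher, namely Trac, Cd247 and Cd8b1. Trac had 112 CPM under mark 1 and 72.5 CPM under mark 2, against 0.0974 and 0.109 CPM in the rest, and a UMI in 42 of the 96 and in 0 of 97 macrophage complement barcodes. Cd247, the CD3 zeta chain, had 50.3 and 46.2 CPM, against 14.9 and 14.4 CPM in the rest, a 3.38-fold and 3.19-fold difference. Of the surface and costimulation genes 2 of 3 were higher. The adhesion receptor Cd2 had 88.7 and 59.3 CPM, against 0.688 and 1.1 CPM in the rest, and Thy1, a surface glycoprotein of T cells that is also on other cells, had 154 and 59.3 CPM, against 2.05 and 1.72 CPM. Cd96, the third, had 97.6 and 112 CPM, against 83.5 and 71.2 CPM in the rest.

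Of the receptor signalling genes 5 of 6 were higher. The kinase Lck, which phosphorylates the CD3 chains, had 104 and 52.7 CPM under marks 1 and 2, against 0.493 and 0.658 CPM in the rest. Lat, the adaptor on which the signalling complex assembles, had 101 and 65.9 CPM, against 0.136 and 0.127 CPM. The adaptor Skap1 was 14.2-fold and 14.9-fold higher, and the phosphatase Ptpn22 49.3-fold and 19.2-fold higher. Prkcq, protein kinase C theta, was alike in both, with 121 and 132 CPM, against 111 and 119 CPM in the rest.

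The receptor constant genes were seen together in many barcodes. Among the 96, Trbc1 alone had a UMI in 21, Trbc2 alone in 35, both in 36 and neither in 4. At 2 or more UMIs of each gene, 9 barcodes still had both. The highest count was 22 UMIs of Trbc2, in a mark 1 barcode with 6 UMIs of Trbc1. In the rest 4 barcodes had a Trbc1 UMI, and none had UMIs of both. Among the 97 macrophage complement barcodes 4 had a Trbc2 UMI and 0 a Trbc1 UMI. Both genes are in the gate, which neither the rest nor these 97 passed, so this is a description only.

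**Figure D4:**
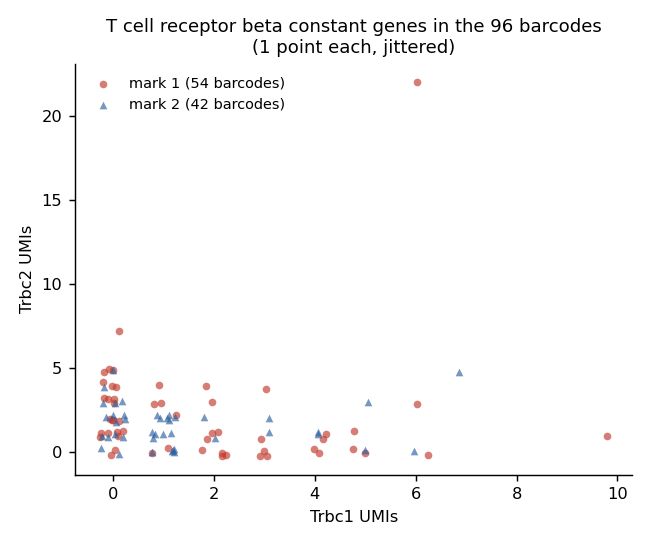
UMIs of Trbc1 (x axis) and Trbc2 (y axis) in each of the 96 T or NK cell-like barcodes, with circles for mark 1 and triangles for mark 2. Points spread along both axes and between them, and 36 of the 96 lie off both axes.

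By coreceptor, Cd8b1, which encodes a chain of the CD8 coreceptor of class I-restricted T cells, had a UMI in 38 of the 96 (39.6%, 29.8 to 50.1%), 18 under mark 1 and 20 under mark 2. Its share was 0.747% in the rest and 0 of 97 in macrophage complement barcodes, whose median depth was 5927 UMIs. Thinned to 3000 UMIs per barcode, 32 of the 96 kept a UMI. Cd8a had a UMI in 22 of the 54 barcodes of mark 1. Cd4, the coreceptor of helper T cells, had a UMI in 2 of the 96 (2.08%, 0.253 to 7.32%), against 8.25% of macrophage complement barcodes and 0.39% of the rest, and no barcode of the 96 had UMIs of both coreceptors. A UMI of Cd8a or Cd8b1 was found in 46 of the 96 (47.9%), and at this depth a barcode without one is not shown to lack them.

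UMIs of Cd3d, Cd3e or Cd3g were found in 93 of the 96 barcodes, and in 22 of 97 macrophage complement barcodes. The 3 barcodes without one were all under mark 2. Of these, 1 had 14 Gzma, 27 Ccl5 and 6 Tyrobp UMIs and 1 Trbc1 UMI. Another had 7 Gzma, 17 Ccl5, 3 Trbc2 and 2 Cd8b1 UMIs, and the last had 5 Nkg7, 10 Ccl5, 1 Trbc2, 1 Trac and 2 Cd8b1 UMIs. Tyrobp (DAP12), a signalling adaptor of NK and myeloid cells, had a UMI in 2 of the 96, against 86 of 97 macrophage complement barcodes. Nkg7 and a CD3 gene were together in 68 of the 96. Nkg7 and the CD3 genes chose the 96, and the macrophage complement barcodes did not pass the gate, so these counts are a description only.

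Cytotoxic and NK genes were higher where they could be compared, 2 of 2 in each list, out of 12 and 21 listed. Klrd1, Ncr1, Prf1 and Gzmb, listed as markers outside the gate, are not in the table. Klrb1c, at 0 in every mark 2 barcode, had a UMI in 1 of the 96, and Fcer1g in 8. NK cells were thus not told apart from cytotoxic T cells by these lists. Ctsw, a cathepsin of cytotoxic lymphocytes, had 124 and 59.3 CPM under marks 1 and 2, against 0.292 and 0.223 CPM in the rest. Srgn, the proteoglycan of secretory granules, had 225 and 132 CPM, against 16.1 and 12.3 CPM. Klrk1, the receptor NKG2D, had 91.7 and 49.4 CPM, against 0.201 and 0.103 CPM, and a UMI in 26 of the 96. Xcl1, a chemokine that draws cross-presenting dendritic cells, had 127 and 85.7 CPM, against 0.325 and 0.308 CPM. Ifng, interferon gamma, had 42 UMIs in 20 of the 54 mark 1 barcodes.

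Of chemokine and homing genes 11 of 12 were higher. Ccl5, a chemokine stored and secreted by activated T cells, had 1547 CPM under mark 1 and 1269 CPM under mark 2, against 4.62 and 4.05 CPM in the rest. Per barcode it ranged from 0 to 88 UMIs with a median of 4.5 under mark 1, and from 0 to 35 with a median of 6.5 under mark 2. Cxcr6, a chemokine receptor of tissue T cells, had 240 and 145 CPM, against 0.175 and 0.133 CPM in the rest, and a UMI in 59 of the 96 and in 0 of 97 macrophage complement barcodes. Cd69, which holds lymphocytes in tissue, had 104 and 46.2 CPM, against 0.214 and 0.133 CPM. The integrin chain Itgb7 had 71.0 and 46.2 CPM, against 0.0325 and 0.0906 CPM.

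Itgae, the integrin CD103 of lymphocytes in epithelia, was the exception, with 204 and 195 CPM in the 96, against 300 and 309 CPM in the rest. The germ cell kinase gene Haspin (chromosome 11, 73135485-73138294, minus strand) lies inside Itgae (73090583-73147446, plus strand), and the sources used here do not say whether the authors' counting used strand. Ccr7 and S1pr1, receptors of naive and recirculating T cells, had few UMIs in the 96. Ccr7 had 0 UMIs in the 96 (0 to 3.77% of barcodes), against 2.37 CPM and a UMI in 2.36% of barcodes in the rest. That interval includes the share of the rest, so a lower level than there is not shown. S1pr1 had UMIs in 3 of the 96 (3.13%), against 0.2% of the rest and 13.4% of macrophage complement barcodes.

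Of the naive and memory regulators 5 of 6 were higher, namely Id2, Bcl11b, Il7r, Ets1 and Runx3. Id2, an inhibitor of basic helix-loop-helix factors that effector lymphocytes use, had 246 and 125 CPM under marks 1 and 2, against 0.876 and 0.761 CPM in the rest. Bcl11b, a factor that keeps T cell identity, had 68.0 and 46.2 CPM, against 0.201 and 0.236 CPM. Il7r, the receptor of the survival factor interleukin 7, had 94.7 and 42.9 CPM, against 0.221 and 0.205 CPM. Klf2, which promotes exit from tissue, had 115 and 82.4 CPM, against 42.7 and 46.8 CPM in the rest, a 2.7-fold and 1.76-fold difference. Among helper and regulatory genes Maf was higher, at 109 and 62.6 CPM, against 2.05 and 1.69 CPM, and Gata3 had UMIs in 9 of the 96.

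Leukocyte genes and class I genes filled out the profile, with 14 of 15 and 7 of 8 higher. Cd52 had a UMI in 92 of the 96 and levels of 867 and 712 CPM, against 1.4 and 1.88 CPM in the rest. B2m, the light chain of class I molecules, had 805 and 550 CPM, against 10.54 and 10.97 CPM. Limd2 stood apart, at 402 and 448 CPM, against 437 and 468 CPM in the rest. Of 7 comparable immediate early genes, a group that cell dissociation is known to raise, 5 were higher. Junb had 503 and 284 CPM, against 5.19 and 4.53 CPM, and Fos 183 and 79.1 CPM, against 3.86 and 3.21 CPM. Of the interferon response genes 5 of 5 were higher, and of the let-7 and miR-202 seed-family list 1 of 4, the cyclin gene Ccnd2, with 172 and 79.1 CPM, against 1.27 and 1.88 CPM.

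Set against the 97 macrophage complement barcodes, of similar depth, 101 of 4887 compared genes were at least 2-fold higher in the 96 under both marks (2.07%) and 233 lower (4.77%). Of receptor signalling genes 5 of 6 were higher, and of chemokine and homing genes 9 of 12, with 0 lower in either list. Other lists were mixed. Of NK receptors and regulators 2 of 4 were higher and 2 lower, and of naive and memory regulators 4 of 8 and 2. Of cytotoxic genes 1 of 2 was higher and 0 lower, and of helper and regulatory genes 0 of 2 and 1. Of macrophage and monocyte markers 0 of 14 were higher and 13 lower. C1qa, C1qb and C1qc chose the macrophage complement barcodes and were not left out of these counts. Their levels are therefore a description only. C1qa, C1qc and Lyz2 had 0 UMIs in the 96, against 1379, 946 and 2093 CPM in macrophage complement barcodes. Ccl4, a chemokine of both cell kinds, had 240 and 102 CPM under marks 1 and 2 in the 96, against 151 CPM in macrophage complement barcodes. Class I genes were near even, with 1 of 8 higher and 0 lower, and 6 of 13 immediate early genes were lower in the 96.

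Markers of other cell types in the 96 were few outside germ cells and blood. Of the 14 macrophage markers 8 were at 0, and 0 of the 2 comparable ones were 2-fold higher or lower than in the rest. Dendritic cell and class II genes summed to 19 UMIs. Of comparable genes against the rest, 0 of 3 erythroid, 0 of 2 spermatogonium, 0 of 8 spermatocyte, 0 of 10 spermatid and 0 of 5 cell cycle genes were higher, and 1 each of the spermatogonium (Dazl), spermatocyte (Tex101) and spermatid (Acrv1) lists was lower. The 14 macrophage markers summed to 471 CPM, of which Aif1 gave 258 of 302 UMIs, and Aif1 had 402 CPM in the 96 against 524 CPM in the rest. B cell markers summed to 17 UMIs, endothelial markers to 4, stromal markers to 7, Leydig markers to 6, Sertoli markers to 37 and granulocyte and mast cell markers to 0. Spermatid markers made up 82765 CPM summed over the 96 and 80532 CPM in the rest, with a range of 13695 to 249436 CPM per barcode. In 10 barcodes the protamine and transition protein share exceeded 10%, and 9 of these had at least 10000 UMIs. Hemoglobin UMIs came almost wholly from 1 mark 1 barcode, which held nearly all of the 978 Hbb-bs UMIs. What these UMIs add to other results was not tested, except where values without such barcodes are given.

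Within the 96, barcodes with a Cd8b1 UMI were compared with those without, a split chosen after the values were seen. The 38 with and the 58 without had median depths of 5018 and 5341 UMIs. Of 68 listed genes outside the gate, 9 were at least 2-fold higher under both marks in barcodes with Cd8b1 (13.2%) and 1 lower (1.47%). The share over all genes was not computed for this split, so these counts describe the listed genes only. Ccl4 had 103 UMIs in 21 of the 38, against 9 UMIs in 5 of the 58, a ratio of 23.7 (12 to 53.3), with 32.2 under mark 1 and 15.4 under mark 2. Ccl5 had a UMI in all 38, with a median of 11, and in 33 of the 58, with a median of 2 over the 58, and its CPM ratio was 3.31 (2.89 to 3.8). Nkg7, whose UMIs helped to admit these barcodes and which is not among the 9, had a UMI in all 38 and in 33 of the 58.

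Also higher with Cd8b1 were Itga4, Cd27, Trac, Gimap4, Ikzf1 and Cd69, at pooled ratios between 1.99 and 2.96. The interval of Ikzf1 included 1 (0.878 to 5.98). Some of these calls rested on few UMIs under mark 2, such as 3 against 2 for Ikzf1 and 5 against 1 for Cd27. Klra9, a receptor of the Ly49 family of NK cells, was lower, with 1 UMI in the 38 against 21 UMIs in 8 of the 58. Pooled ratios below 1 were also found for Itgb7 at 0.388 (0.133 to 0.941), Il7r at 0.447 (0.18 to 0.976) and Maf at 0.506 (0.236 to 0.993), each without a 2-fold difference under mark 2. The ratio of Cd3g was 1.06 (0.791 to 1.4), and that of Cd3d was 1.28 (0.905 to 1.8).

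**Figure D5:**
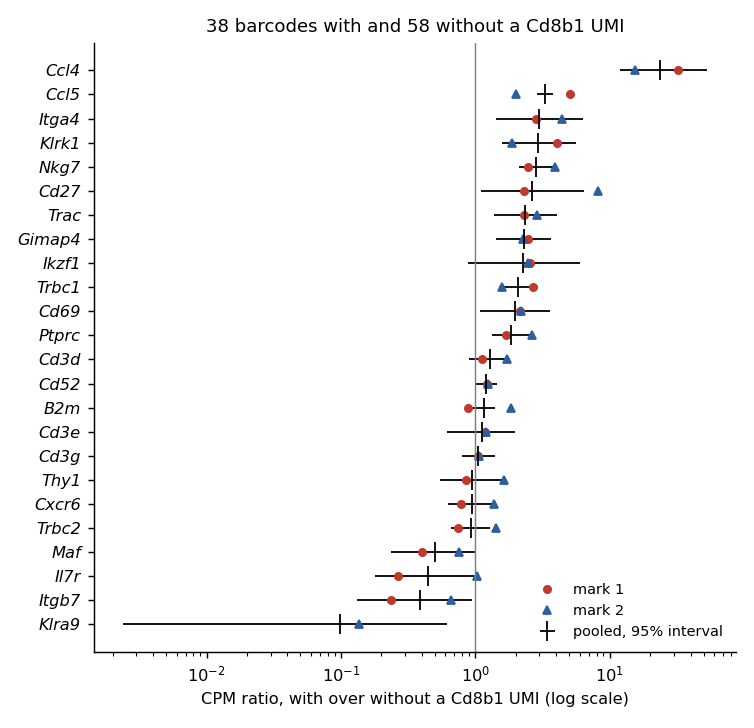
Ratio of CPM in the 38 barcodes with a Cd8b1 UMI over the 58 without (log axis), pooled with exact 95% intervals (bars) and under mark 1 (circles) and mark 2 (triangles), for genes at least 2-fold apart under both marks and selected others. Ccl4 lies farthest to the right at 23.7, and Klra9, with 0 UMIs under mark 1 in the 38 and so no circle, farthest to the left at 0.0985.

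Between marks, summed CPM of lymphocyte genes in the 96 were higher under mark 1 than under mark 2. The amount changed with the barcodes included. Deep barcodes weigh more in these sums, and 4 of 54 mark 1 but 6 of 42 mark 2 barcodes had at least 10000 UMIs. Of 3203 compared genes (at least 20 UMIs under either mark) 198 were at least 2-fold higher under mark 1 (6.18%) and 49 lower (1.53%). Of 61 T, NK, leukocyte, class I and gate genes 13 were at least 2-fold higher and 1 lower, Gzma at 0.345 (0.149 to 0.74), with a median ratio of 1.55 beside 1.04 over all compared genes. Without the 10 barcodes of high protamine and transition protein share 3 were higher and 1 lower, and the median ratio was 1.19 beside 0.985. A mark 2 barcode of 22709 UMIs with 5 leukocyte UMIs stayed in. How far the deep barcodes set the difference between marks was not tested. Prm1 itself had 22120 CPM under mark 1 and 40189 CPM under mark 2 in the 96, against 29041 and 29318 CPM in the rest.

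Among genes with at least 50 UMIs under either mark, the farthest apart between marks in the 96 were the hemoglobin genes Hba-a1, Hba-a2, Hbb-bt and Hbb-bs, from the single barcode above. Next came Ncl at a ratio of 2.94 (1.86 to 4.81), Klk1b8 at 0.344 (0.234 to 0.497), Hnrnpa3 at 2.72 (1.83 to 4.13), Thy1 at 2.59 (1.49 to 4.71), Zfp36l2 at 2.57 (1.82 to 3.7) and Slc25a3 at 2.54 (1.56 to 4.28). Below that minimum, listed genes such as the immediate early genes Zfp36 at 8.38 (2.59 to 43.1) and Fosb at 6.46 (2.53 to 21.1) lay farther apart than Ncl. Over all 266 members 294 of 9395 genes were higher under mark 1 (3.13%) and 161 lower (1.71%), and over the 170 the counts were 267 (3.06%) and 212 (2.43%) of 8731. After the hemoglobin genes, the members' list was led by Zfp219, Dcdc2c, Ppm1f, Faiml, Zic5 and Cyp2f2, at ratios between 5.56 and 3.32. The CPM of these 6 were also above mark 2 in the mark 1 rest, with 13.6 and 11.4 CPM for Zfp219 and 14.8 and 6.84 CPM for Cyp2f2.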

How the data were processed

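Per the submitters' processing notes, reads were processed with Cell Ranger 1.3.1, Seurat 3.2.2 and the build GRCm38. The deposited table holds UMI counts, whole numbers that were not normalised, for 20476 genes and 28245 barcodes, and the sources used here do not give the authors' filter on barcodes. No further filter was applied and doublets were not removed. UMIs were summed over barcodes per mark and scaled to CPM. A call needed a 2-fold or larger CPM difference that pointed 1 way in each mark. It also needed at least 10 UMIs observed or expected per mark. Calls between marks needed a 2-fold or larger difference with at least 20 UMIs in the higher mark. The split by Cd8b1 did not use the minimum of 10 UMIs per mark. With 1 library per genotype no test was run. Levels have exact Poisson, shares Clopper-Pearson and ratios conditional binomial 95% intervals. The calling rule was tested on simulated data. The members, the 27 gene lists (318 genes, 264 in the table) and the cutoffs were chosen with earlier results of these data known. Named genes were the gate genes, the listed genes of most UMIs, and, of genes with at least 50 UMIs, the 25 largest ratios over the rest and the 10 largest between marks, while Ccr7, Gata3 and some others were picked with their values known. Gene positions came from GENCODE M21, which held 20088 of the 20476 symbols. Some genes that these counts include are not reported here.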

Additional observations from a re-analysis of the deposited data

How the results depend on the processing

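The number of members rested on the threshold. At 3 UMIs the gate held 1258 barcodes (4.45%), 651 under mark 1 and 607 under mark 2, and at 10 UMIs 55 (0.195%), 34 and 21. Thinned to 3000 UMIs it held 59 (0.209%), 35 and 24, all T or NK cell-like. A gate on Cd3e, Cd3g, Trbc1, Nkg7 and Gzma alone, chosen after seeing the data, held 75 (0.266%), 43 and 32. T or NK cell-like barcodes numbered 50 (29 and 21) at 10 gate UMIs. For all members over the rest, 424 genes were higher and 3210 lower at 1.5-fold, 54 and 753 with at least 30 UMIs, and 275 and 779 from the mean of barcode CPM, while 82 were lower at 4-fold and 61 with the gate at 10 UMIs. For T or NK cell-like barcodes alone 283 were higher and 41 lower, and for Cd3d/Trbc2-only barcodes 15 were higher. Of the 151 genes higher over all members 126 were also among the 283. Between marks over all members, 810 were higher and 846 lower at 1.5-fold, 111 and 34 with at least 50 UMIs, and 462 and 271 from the mean of barcode CPM. In T or NK cell-like barcodes at most 10% protamine share left 3 of the 13 listed genes higher under mark 1. The causes of these shifts were not tested, apart from the smaller sets of barcodes or genes that the settings make. Leaving out macrophage complement barcodes, the CD3 and Trbc genes alone, and scaling without protamine and mitochondrial UMIs left each count they were run on within 1.5 times. At 10 gate UMIs, levels of single named genes over all members left their counting interval upward for 32 genes and downward for 0. The mean of barcode CPM gave the same counts. After thinning, the percentage of members with a UMI of a named gene left its interval upward for 0 genes and downward for 7. Thinning can only remove UMIs, so that direction was fixed in advance. No paired analysis was possible because the table ties no barcode to a genotype and each genotype has 1 library.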
